A study of Arabidopsis thaliana with 12 samples.

Results

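The genes described here are the kinesin genes AT4G14330 and AT2G37420 and the IQ-domain gene iqd32 (AT1G19870), each measured by a probe that the platform annotation assigns to it alone. They are 3 of the 691 *Arabidopsis thaliana* genes with a probe of their own on an array of 3439 probes. They were chosen by their measured difference between recovery and control samples, which was already known, so that difference is described here and no test of it is read as support. RNA was total RNA of wild-type plants of the Columbia 0 ecotype, with no transgene or mutation named. The 6 control samples came from plants kept at 80 µE, the growth light. The 6 recovery samples came from plants exposed for 1 h to 1000 µE, a light stress, before going back to 80 µE. The time back at 80 µE is 2 h in the titles and 1 h in the source names of these samples. Titles give 0 h for controls, so time of day may also differ between the groups and cannot be told apart from light. No organ or cell type is labelled, so there was no tissue identity to check.

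Kinesins are motor proteins that use ATP to move along microtubules or to cross-link and rearrange them. In plant cells they serve the spindle, the phragmoplast that builds the new cell wall at division, and the microtubule array beneath the plasma membrane. IQ-domain proteins form a plant family that binds the calcium sensor calmodulin, and several members of it associate with microtubules. In bulk plant RNA, fewer cells of a type and less transcript per cell cannot be told apart.

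The values are intensities on a scale from 0 to 100, whose array median ran from 0.196 to 0.458. That median was 0.426 to 0.458 in recovery 1, 2, 5 and 6 and 0.284 or less in the other 8 samples. Values were therefore quantile-normalised, raised to a floor of 0.0298 where they lay below it, and put on a log2 scale, where the floor is -5.07. Within a group, likeness followed the replicate numbers, with samples 1+2, 3+4 and 5+6 correlated across features at 0.853 to 0.942 but only at 0.683 to 0.824 across pairs. The labels leave it unstated whether samples are separate plants, so standard errors and p-values cover only the spread among these samples, part of which may be technical. With limma over all 12 samples, 3.03% of 3438 features passed an adjusted p under 0.05 in this comparison. Of the 3 genes, 1 passed, iqd32, and since the genes were chosen with these results known nothing is read from that count.

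The microtubule motor gene AT4G14330 had a higher level in recovery than in control samples, with a normalised difference in log2 of 1.28 (standard error 0.68), or 2.44-fold. Its deposited intensity in control plants was 0.460 and 0.494 in pair 1+2, 0.0370 and 0 in pair 3+4, and 0.164 and 0.199 in pair 5+6. In recovery plants it was 0.958 and 0.919, 0.147 and 0.180, and 0.627 and 0.640 in the same order. Recovery was the higher sample for each of the 6 replicate numbers, but the deposited groups overlapped, because recovery 3 and 4 lay below control 1 and 2. After normalisation recovery 5 and 6 also lay below control 2. Samples of a pair are alike, so these are not 6 separate agreements, and 33.1% of all features kept their direction in all 3 pairs. On the normalised log2 scale the level was -2.45 ± 1.64 in control and -1.17 ± 0.70 in recovery samples (SD, n = 6 per group), and 2 of 6 recovery values exceeded the highest control. The limma fit over all features gave it an adjusted p of 0.351, and 0.104 with the replicate number as a block. With the pair as a random block the adjusted p was 0.717 (standard error 0.75), and with averaged pairs 0.802 (standard error 0.94).

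For AT4G14330 the size of the difference was not alike in value across the pairs of samples. The log2 difference was 0.60 in pair 1+2, 2.45 in pair 3+4 and 0.81 in pair 5+6. In pair 3+4 the control values were the floor itself and -3.81, so the size of that difference rests on the floor. Leaving out control 4 alone lowered the overall log2 difference to 0.76, and leaving out pair 3+4 of both groups lowered it to 0.70 (standard error 0.30). The pairs kept the same order in both groups, with control means of -1.04, -1.89 and -4.44 and recovery means of -0.44, -1.08 and -1.99 for pairs 1+2, 5+6 and 3+4. The 3 control pair means had an SD of 1.77 and the 3 recovery pair means one of 0.78, while the SD within pairs was 0.38. For this kinesin gene the SD between control pairs was thus larger than the overall log2 difference between recovery and control.

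Whether the recovery difference varied between pairs was tested with a limma F test of the interaction of group and pair, in which the samples of a pair supply the spread. If these are repeat readings of the same RNA, such p-values cover reading error only. Over all features, 24.9% passed an adjusted p under 0.05, and of the 3 genes none did (0 of 3). AT4G14330 had an F of 7.95 and an adjusted p of 0.0546. It passed on the values as deposited (adjusted p = 0.0103), after median centring (0.00184), after cyclic loess (0.00198) and with the floor at the 10th percentile (0.00519). It did not pass with the floor at the 1st percentile (0.337), with a pseudocount (0.119) or without dim features (0.0522). The shares of all features that passed were 42.8%, 33.3%, 28.7% and 28.4% under the first 4 of these settings and 21.9%, 27.6% and 25.4% under the last 3. AT2G37420 had an F of 1.05 (adjusted p = 0.541) and iqd32 an F of 2.32 (adjusted p = 0.303), and neither passed under any of these 7 settings. A p above the threshold does not show that the pairs were alike.

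The second motor gene, AT2G37420, lay below the median of its array in every control sample, and its level was also higher in recovery samples, by 1.18 in log2 (standard error 0.41), or 2.26-fold. Its deposited control intensities were 0.0883 and 0.157 in pair 1+2, 0.0618 and 0.0631 in pair 3+4, and 0.0769 and 0 in pair 5+6. The recovery intensities were 0.452 and 0.459, 0.125 and 0.0626, and 0.345 and 0.342. After normalisation recovery 4 lay within the control range and the other 5 recovery values lay above every control, so the groups overlapped through that sample. Normalised log2 levels were -3.39 ± 0.89 in control and -2.21 ± 0.53 in recovery samples (SD, n = 6 per group). The adjusted p from limma was 0.144, and 0.112 with the replicate block. It was 0.741 with the pair as a random block (standard error 0.72) and 0.753 with averaged pairs (standard error 0.43).

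For AT2G37420 the pairs stood in another order than for the first motor gene. Its log2 difference was 1.87 in pair 5+6, 1.14 in pair 1+2 and 0.52 in pair 3+4. The value in pair 5+6 includes control 6 at the floor, 2.18 below control 5 on the log2 scale, and without control 6 the overall log2 difference was 0.84. Recovery 3 and 4 themselves differed by 0.85, and its SD within pairs, 0.72, was above the 0.42 that is the median over all features. That SD includes the gap of 2.18 between control 5 and control 6 at the floor, while its other gaps within pairs were 0.85 or less. Its size therefore depends on the floor. The SDs of its pair means were 0.55 in control and 0.51 in recovery. A mean of 2 samples varies less than a single sample, so these cannot be set directly against the SD within pairs.

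The calmodulin-binding family gene iqd32 went the other way, with a level 2.87-fold higher in control than in recovery samples (log2 difference -1.52, standard error 0.37). Normalised log2 values in control were -0.83 and -1.18 in pair 1+2, -1.75 and -1.42 in pair 3+4, and -1.20 and -0.79 in pair 5+6. In recovery they were -1.79 and -1.80, -2.69 and -4.03, and -2.75 and -3.23. After normalisation the groups did not overlap, but they came close, since recovery 1 lay only just below control 3. Such separation was found for 4.42% of all features, and for 2.73% with recovery the lower group. As deposited the iqd32 groups did overlap, at 0.220 to 0.558 in control and 0.0346 to 0.450 in recovery samples. For replicate number 2 the deposited recovery value (0.439) was even above the control value (0.424). The control mean was -1.19 ± 0.36 and the recovery mean -2.72 ± 0.86 (SD, n = 6 per group), so the recovery samples were the more scattered ones.

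**Figure D1:**
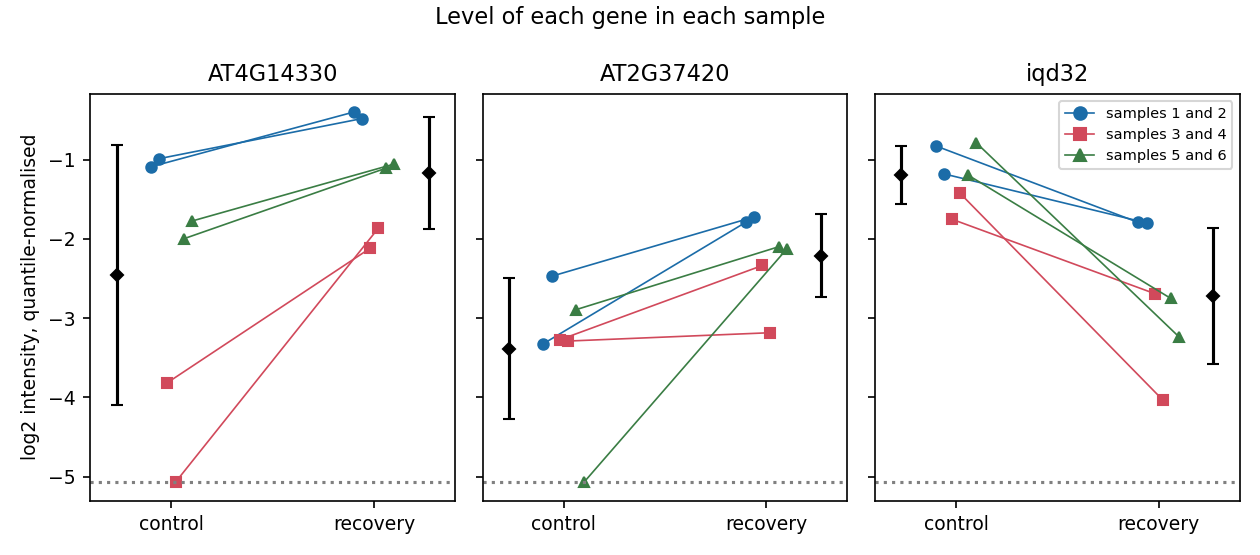
Normalised log2 intensity (vertical axis) of AT4G14330, AT2G37420 and iqd32 in the 6 control and 6 recovery samples. Lines join samples of the same replicate number, colours and symbols mark the pairs, black diamonds with bars are the group mean and SD (n = 6), and the dotted line is the floor at -5.07. Both motor genes slope upward and iqd32 downward for every number, and 1 control value of each motor gene lies on the floor.

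Among pairs, the iqd32 difference was -0.79 in pair 1+2, -1.77 in pair 3+4 and -2.00 in pair 5+6. Samples 3 and 4 therefore showed it about as strongly as pair 5+6, and pair 1+2 the least. Recovery 1 and 2 were closer to each other than any other pair of this gene, 0.00539 apart in log2, and recovery 3 and 4 were 1.34 apart. Its SD within pairs was 0.45, near the median of 0.42 over all features. The call by which iqd32 was known rests close to the threshold, at an adjusted p of 0.0483 from limma. A block for the replicate number ended that call (adjusted p = 0.0537), as did the pair as a random block (0.338) and averaged pairs (0.753). These fits called 3.08%, 0.0873% and 0% of all features.

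All 3 genes kept their direction in each of the 3 pairs, as did 33.1% of all features in either direction. In pair 1+2, 21.4% of features had a larger log2 difference than AT4G14330 and 7.18% a larger one than AT2G37420. In pair 3+4 these shares were 4.51% and 29.8%, and in pair 5+6 they were 20.0% and 3.98%. The motor gene with the larger difference was thus AT2G37420 in the outer pairs and AT4G14330 in the middle pair. In pair 5+6 that order rests on AT2G37420 in control 6, at the floor of -5.07 against -2.89 in control 5. The AT4G14330 difference in pair 3+4 likewise includes control 4 at the floor, so the shares for these values depend on the floor. The share of features with a lower log2 difference than iqd32 was 14.3%, 6.25% and 3.05% in the same pairs. From the 5th to the 95th percentile, features spanned -1.93 to 2.36 in pair 3+4 and -1.44 to 1.31 in pair 1+2.

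**Figure D2:**
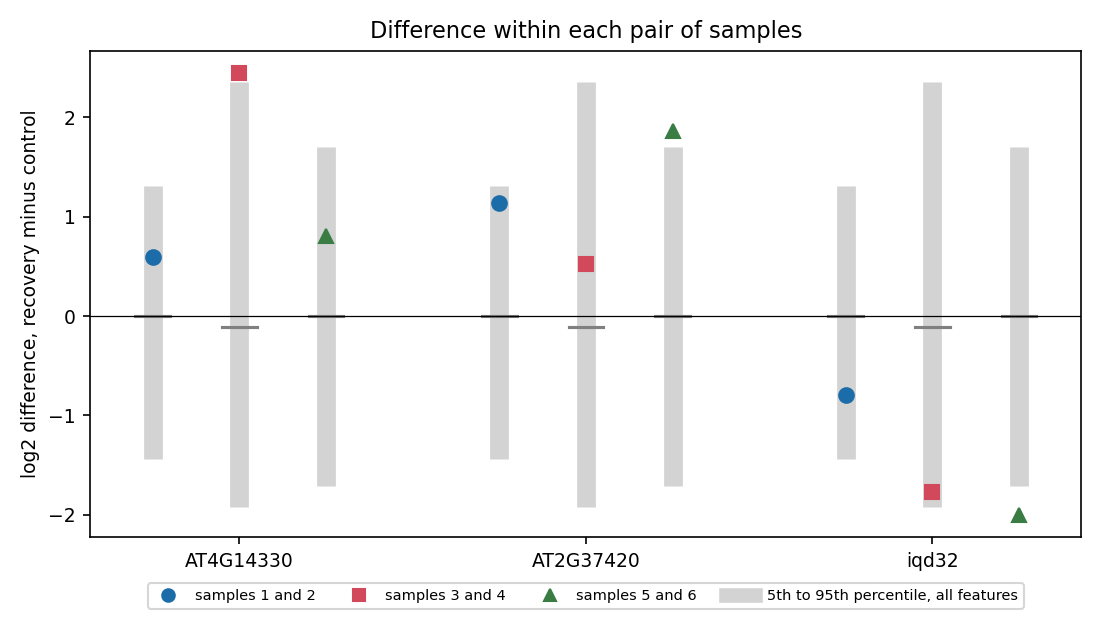
Log2 difference, recovery minus control (vertical axis), of each gene within each pair of samples. Symbols are the 3 genes' differences of pair means, grey bars run from the 5th to the 95th percentile of all 3438 features in that pair, and short lines are the median. AT4G14330 lies above the bar in pair 3+4 only, AT2G37420 in pair 5+6 only, and iqd32 lies below it in pair 5+6 only. The values of both motor genes that lie above the bar include a control sample at the floor.

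Over the 12 samples on the deposited scale, log2 intensity correlated with the log2 array median at 0.920 for AT2G37420, 0.795 for AT4G14330 and 0.372 for iqd32. These points share their arrays and come in like pairs, so the values are a description. In pair 3+4 the array medians were 0.197 and 0.196 in recovery and 0.217 and 0.212 in control samples. The deposited AT4G14330 value was higher in both recovery samples of that pair. AT2G37420 was higher in recovery 3, but in recovery 4 (0.0626) it lay just below control 4 (0.0631). Without normalisation the log2 differences were 1.75 for AT2G37420, 1.68 for AT4G14330 and -1.04 for iqd32, while the median of all features was itself 0.43. Relative to that shift they were 1.32, 1.25 and -1.47. The limma call of iqd32 was lost on the deposited scale (adjusted p = 0.313), where 3.17% of features were called, and after median centring (adjusted p = 0.0586), where 1.89% were. The part of brightness in the normalised differences was not tested.

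Set against the median of its own array, the deposited iqd32 value ran from 1.01 to 2.05 in control samples and from 0.177 to 0.981 in recovery samples. Controls thus lay above their array median without exception, and recovery samples below it. AT2G37420 ran from 0 to 0.581 in control and from 0.320 to 1.02 in recovery samples, so it passed its array median in recovery 2 only. AT4G14330 ran from 0 to 1.82 and from 0.746 to 2.09, and was above the array median in both groups in pair 1+2. In recovery 3 and 4 it stood at 0.746 and 0.922, against 0.170 and 0 in control 3 and 4. AT2G37420 stood at 0.634 and 0.320 there, against 0.284 and 0.298.

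**Figure D3:**
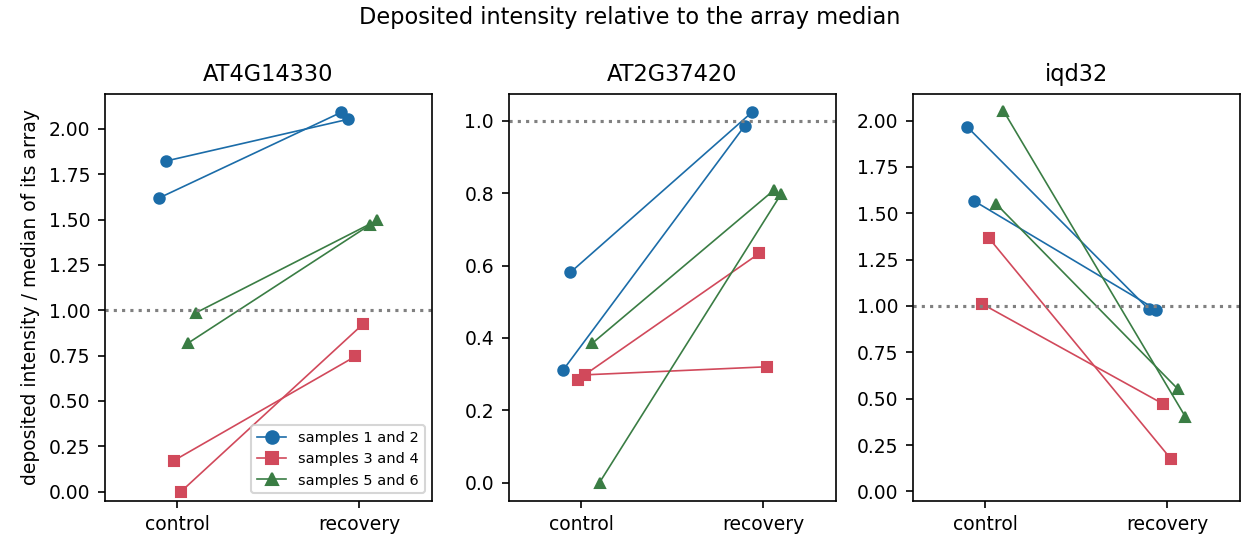
Deposited intensity divided by the median of the same array (vertical axis, linear, own scale in each panel) for each gene in control and recovery samples. Lines join samples of the same replicate number, colours and symbols mark the pairs, and the dotted line is the array median. The 6 control values of iqd32 lie above the line and the 6 recovery values below it.

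Few other genes of the cytoskeleton and of calcium sensing were matched by name to a probe of their own. Matching used symbols and synonyms plus listed loci, and the reference gene table gives no symbol for AT4G14330 and AT2G37420. Genes without such a name can therefore be missed, and an empty list does not show that the array lacks them. Of 6 lists, 4 had no other matched gene with a probe of its own, namely kinesins, tubulins and microtubule proteins, actin filament proteins and myosins, and cell cycle and division. The remaining lists held 3 such genes, of which 0 passed the limma test in either direction (1 had an unadjusted p under 0.05), against 1.19% of all features higher and 1.83% lower. The median log2 difference was -0.97 for the 1 further gene of the IQ-domain and calmodulin-binding list and 0.82 for the 2 calmodulin-like genes, against -0.02 for all features. The 1 probe assigned only to several genes of the IQ-domain and calmodulin-binding list, looked at after values were seen, had a log2 difference of 0.72 (adjusted p = 0.582), opposite in sign to that of iqd32.

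IQD22 (AT4G23060), a member of the same family as iqd32, had a log2 difference of -0.97 (standard error 0.49, adjusted p = 0.328). Its size cannot be interpreted, because 2 of 6 controls and 4 of 6 recovery samples were at the floor. The normalised levels above the floor by more than 1 were those of control 4, 5 and 6, at -3.60, -2.24 and -2.94. CML30 (AT2G15680), named as calmodulin-like 30, had a log2 difference of 0.53 (standard error 0.24, adjusted p = 0.266). Its normalised log2 level ran from -0.93 to 0.34 in control and from 0.12 to 0.89 in recovery samples. The CML30 difference was 0.39 in pair 1+2, -0.12 in pair 3+4 and 1.31 in pair 5+6, so the pairs differed in sign. It was 0.85 without pair 3+4, 0.14 without pair 5+6, 0.34 without control 5 and 0.11 after median centring. CML41 (AT3G50770), named as calmodulin-like 41, had a log2 difference of 1.10 (standard error 0.70, adjusted p = 0.431). It came to 3.22 in pair 3+4 and 0.12 and -0.03 in the other pairs, and without pair 3+4 the overall value was 0.05.

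Kinesin genes were also covered by 2 probes assigned only to kinesin genes but to more than 1 of them, which cannot be ascribed to a single gene. Their log2 differences were -0.82 and -0.42, and neither passed (lowest adjusted p 0.434). The second of these, probe 4181, is assigned to several genes with AT2G37420 among them. Its deposited intensity was 0.900 and 0.809, 0.323 and 0.204, and 0.880 and 1.17 in the control pairs. In the recovery pairs it was 0.864 and 0.752, 0.567 and 0.582, and 0.459 and 0.580. Its log2 difference was -0.48 in pair 1+2, 1.03 in pair 3+4 and -1.80 in pair 5+6, whereas the probe of AT2G37420 alone was above 0 in each pair.

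The genes whose normalised log2 level ran most like that of each gene over the 12 samples were ranked by Pearson correlation among 681 genes. For AT4G14330 they were PSBW, a photosystem II subunit gene (r = 0.940), AT4G31060 (0.939) and AT5G05400 (0.933). These values were 0.945, 0.927 and 0.920 with the group means removed, so this likeness lay in differences among samples of the same group. For AT2G37420 they were the chromatin remodelling gene chr31 (0.856), AT3G02450 (0.848) and AT4G22370 (0.833). With the group means removed these were 0.753, 0.782 and 0.696. For iqd32 they were AT1G78790, which carries the synonym MHF2 (0.896), AT1G62250 (0.875) and CUTA (0.872), and with the group means removed 0.737, 0.665 and 0.644.

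The motor genes did not run closely together. Their correlation over the 12 samples was 0.435, and 0.172 with the group means removed. For iqd32 the correlation was -0.10 with AT4G14330 and -0.39 with AT2G37420, and with the group means removed 0.521 and 0.277. Each of these values is over 12 samples that come in like pairs and is given as a description.

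The sizes of the differences moved with the processing and the samples left out, and more so for the motor genes than for iqd32. Over 25 alternatives the log2 difference ran from 0.70 to 2.04 for AT4G14330, from 0.72 to 1.94 for AT2G37420 and from -1.89 to -1.04 for iqd32. The upper ends for the motor genes came with the floor at the 1st percentile, which places the controls listed at 0 lower. The lower end for AT4G14330 came without pair 3+4, and the -1.89 of iqd32 without pair 1+2. Neither motor gene passed the limma test under any of these alternatives, and iqd32 passed under 6 of 25.

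**Figure D4:**
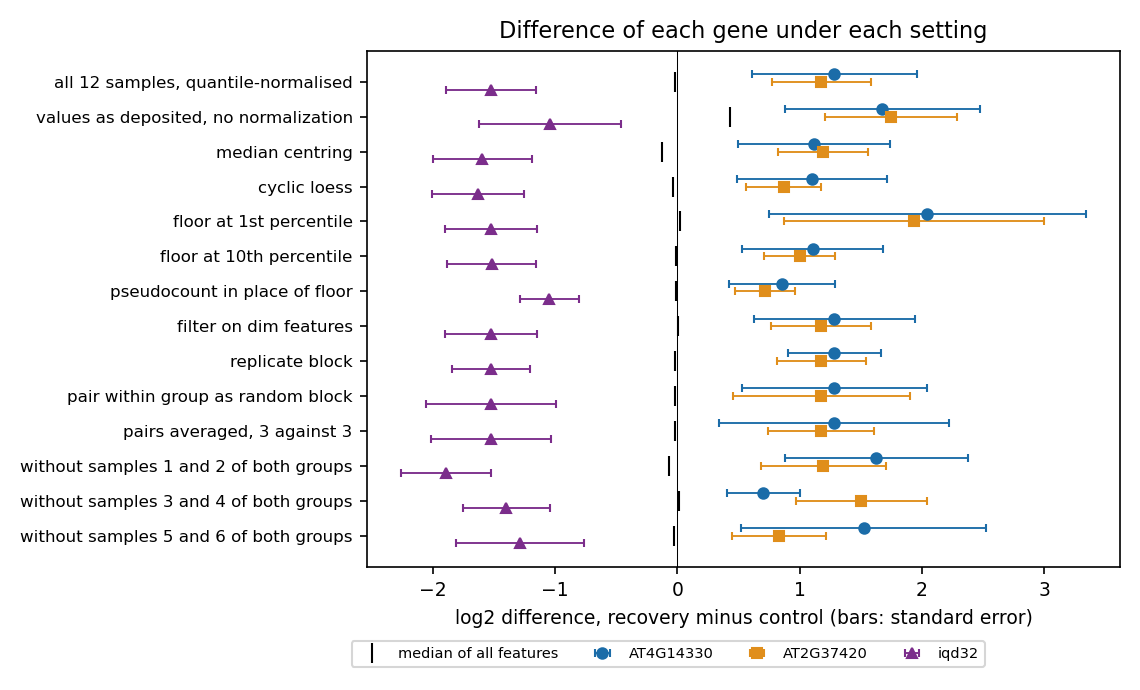
Log2 difference, recovery minus control (horizontal axis), of each gene under each setting on the vertical axis other than leaving out single samples. Bars are the standard error from limma, and black ticks are the median of all features. Both motor genes stay above 0 and iqd32 below 0 in every row, and the median of all features leaves 0 most on the deposited values, at 0.43. The rows for the filter, the replicate block, the random block and averaged pairs repeat the main difference by construction.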

How the data were processed

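Single-channel array profiles of 12 samples were used, grouped and numbered by their titles. The authors deposited intensities that were never negative and had a ceiling of 100, and a linear scale was assumed for them. Nothing in the labels or the file states the array type, background correction or scaling, which stay unknown. From 171 to 383 probes per sample were listed at 0. Array number and floor limit the precision, as no background readings were used.

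The platform annotation gives 1 gene for 692 of 3439 probes and several for 870, and 1877 are unnamed here. Symbols came from a RefSeq gene table of TAIR10.1, which held 690 of the 692. No build is named for the series, so no positions are given. Probes of the same gene were averaged, which left 3438 features.

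Values were quantile-normalised, floored at the 5th percentile of positive values, and tested on the log2 scale with limma 3.58.1 (R 4.3.3; lmFit, eBayes, two-sided, Benjamini-Hochberg over all features), on 12 samples without covariates. Every adjusted p comes from limma. The fits were also run on simulated data with independent noise in each sample. No likeness within pairs was simulated, so that run does not show how the fits behave with the likeness seen here. Deviations from the group mean correlated at 0.110 to 0.462 for the same number in both groups, and otherwise, across pairs, at -0.229 to 0.008. All 6 same-number values exceeded 0.1, so the numbers of the titles were taken to pair the samples.

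The genes and the 6 lists were chosen with earlier results of these data known. Lists were matched by words in the symbols and synonyms of the reference table plus listed loci. Named were the 3 genes, up to 4 genes with the smallest p per list, and the 3 genes most correlated with each. Probes shared by several genes of a list were added after values were seen. Alternatives changed the scaling, the floor, the filter on dim features (above the floor in at least 6 samples), the pseudocount (0.1), the treatment of pairs, and the samples left out.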

Additional observations from a re-analysis of the deposited data

Results flagged for a closer look

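In the 6 groups of controls and 6 groups of recovery samples of the 3 genes and of IQD22, CML30 and CML41, a sample that stood apart was sought by dividing its gap to the next value by the whole range. Dixon's 95% limit was exceeded in 3 of 12 groups, and about 1 in 20 would exceed it by chance if values were independent. The likeness within pairs and ties at the floor may change that rate. Control 6 stood low for AT2G37420, at the floor of -5.07 against -3.32 to -2.47 in the other controls (gap share 0.673). Recovery 1 stood high for IQD22, at -4.39 against -5.07 to -5.06, with 4 of the other values at the floor (0.989). Control 5 stood low for CML30, at -0.93 against -0.12 to 0.34 (0.637).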

How the results depend on the processing

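AT4G14330 and AT2G37420 kept their direction and stayed above the adjusted threshold of 0.05 under all 25 alternatives, replicate block included, and leaving out single samples gave 0.76 to 1.58 and 0.84 to 1.37. For iqd32 the direction held under all 25, and the limma call was lost under 19. Its log2 difference was -1.52 with the replicate block, the pair as a random block, averaged pairs and the filter on dim features. In this balanced design these fits return the main difference for each of the genes, so they are no check of size or direction. For iqd32 the value was also -1.52 with the floor at the 1st percentile, as none of its values was at the floor. It was -1.04 as deposited, -1.59 after median centring, -1.89 without pair 1+2 and -1.28 without pair 5+6. Leaving out single samples gave -1.71 to -1.26, and 2 of 12 such fits kept the call (largest adjusted p 0.111, without recovery 6). The replicate block changed no other call among the 6 genes whose differences are given. The cause was not tested.

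Against 104 features called (41 higher, 63 lower), the replicate block gave 106, of which 58 were among the 104. Median centring gave 65 calls with 14 higher, cyclic loess 60 (26 higher, 34 lower) and the filter 69 with 41 lower, on fewer features. The deposited values gave 79 higher and 30 lower, and the floor at the 1st percentile 27 higher. The random block gave 3 (2 higher, 1 lower), and averaged pairs 0 in limma (0 higher, 0 lower, 203 at an unadjusted p under 0.05). Without pair 1+2 there were 28 calls (14 and 14), without pair 3+4 there were 416 (203 and 213), and without pair 5+6 there were 10 (5 and 5). Single samples left out gave 42 to 93 calls, 14 to 36 higher and 28 to 58 lower. Features whose difference varied between pairs numbered 857, and 1471 on the deposited values.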
